A study of Canis lupus familiaris with 48 samples.

Results

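A stretch of dog chromosome 2 about 955.7 kb long, from 6941688 to 7897377 on the build CanFam3.1, held 8 expressed genes in MDCK I cells, and 7 of these 8 had a higher mean level after each of 3 hyperosmotic media than in control medium. The genes are the rows of the deposited table that lie inside this window and reached a mean of at least 1 CPM (counts-per-million, on totals scaled with edgeR's TMM factors) in any group; 8 of the 11 rows in the window met this, out of 32704 genes in the table. The window was selected on measured values of these same libraries, the higher levels of neighbouring genes after NaCl, raffinose and urea than in control, so the levels against control are a description of that choice, and no test of them is used as support. The first gene of the window, ENSCAFG00000004365, did not share the pattern, and the stretch of higher genes began with its neighbour ENSCAFG00000004332.

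MDCK I is an established canine kidney epithelial line. Culture lasted 144 h, of which the final 24 h were in medium supplemented with 200 mOsm of NaCl (titled Natrium by the submitters), 200 mOsm of raffinose or 200 mOsm of urea, which gave 500 mOsm in all, or in regular medium of 300 mOsm (control). Each of the 4 groups held 12 libraries of polyadenylated RNA, 1 at each of the same 12 cell passages from 1 to 19. All 48 libraries come from 1 cell line, and nothing states that a passage was a separate culture beyond its number. The p-values between media and within a group measure the spread between passages. Those of the passage terms count the 4 libraries of a passage as separate. Library totals ran from 3.92 to 16.16 M counted reads with a median of 10.51 M, so 1 CPM stands for about 4 to 16 reads. In RNA from whole wells, fewer cells of a type and less RNA per cell cannot be told apart.

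Cells of the renal medulla live at a high and changing osmolality. NaCl and raffinose stay largely outside the cell and draw water out of it, while urea crosses membranes and raises osmolality without lasting shrinkage. Cells facing impermeant solutes are known to gather compatible osmolytes and to activate the transcription factor NFAT5 (TonEBP), whereas urea is known mostly as a stress on proteins and on the cell cycle. The 8 genes are given by Ensembl identifier: no symbol for any of the 32704 identifiers is given in the sources used here, so their functions, and lists of osmolyte or epithelial marker genes, were not analysed here.

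Along the chromosome the 8 genes lie in the order ENSCAFG00000004365 (6941688 to 7057684, plus strand), ENSCAFG00000004332 (7059771 to 7096332, minus), ENSCAFG00000031840 (7111470 to 7123210, plus), ENSCAFG00000004329 (7151443 to 7212200, minus), ENSCAFG00000004299 (7365708 to 7450893, minus), ENSCAFG00000004279 (7455631 to 7677383, minus), ENSCAFG00000040667 (7693823 to 7694774, minus) and ENSCAFG00000034192 (7814542 to 7897377, plus). Of these, 3 are on the plus and 5 on the minus strand. The genes share 0 exonic bases with any other annotated gene, so counting without strand did not merge annotated neighbours. ENSCAFG00000004279 is the longest, with 33 separate exon blocks and 4839 exonic bases over 222 kb, and ENSCAFG00000040667 is the shortest, with 2 exon blocks and 341 exonic bases over 0.952 kb. Gaps between successive members run from 2.09 kb, between ENSCAFG00000004365 and ENSCAFG00000004332, to 154 kb, before ENSCAFG00000004299.

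The other 3 rows of the window had almost no reads. ENSCAFG00000004370, inside the span of ENSCAFG00000004365, had 8 reads over all 48 libraries. ENSCAFG00000022616, inside the span of ENSCAFG00000004332, had 10 reads, and ENSCAFG00000022978 had 0. Nearest above the level threshold of 1 CPM were ENSCAFG00000040667 and ENSCAFG00000034192, whose highest group means were 1.90 and 2.10 CPM. The next row, ENSCAFG00000022616 at 0.0250 CPM, lay far below it. All 8 genes also passed edgeR's filterByExpr, as did 12654 genes of the whole table.

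**Figure D1:**
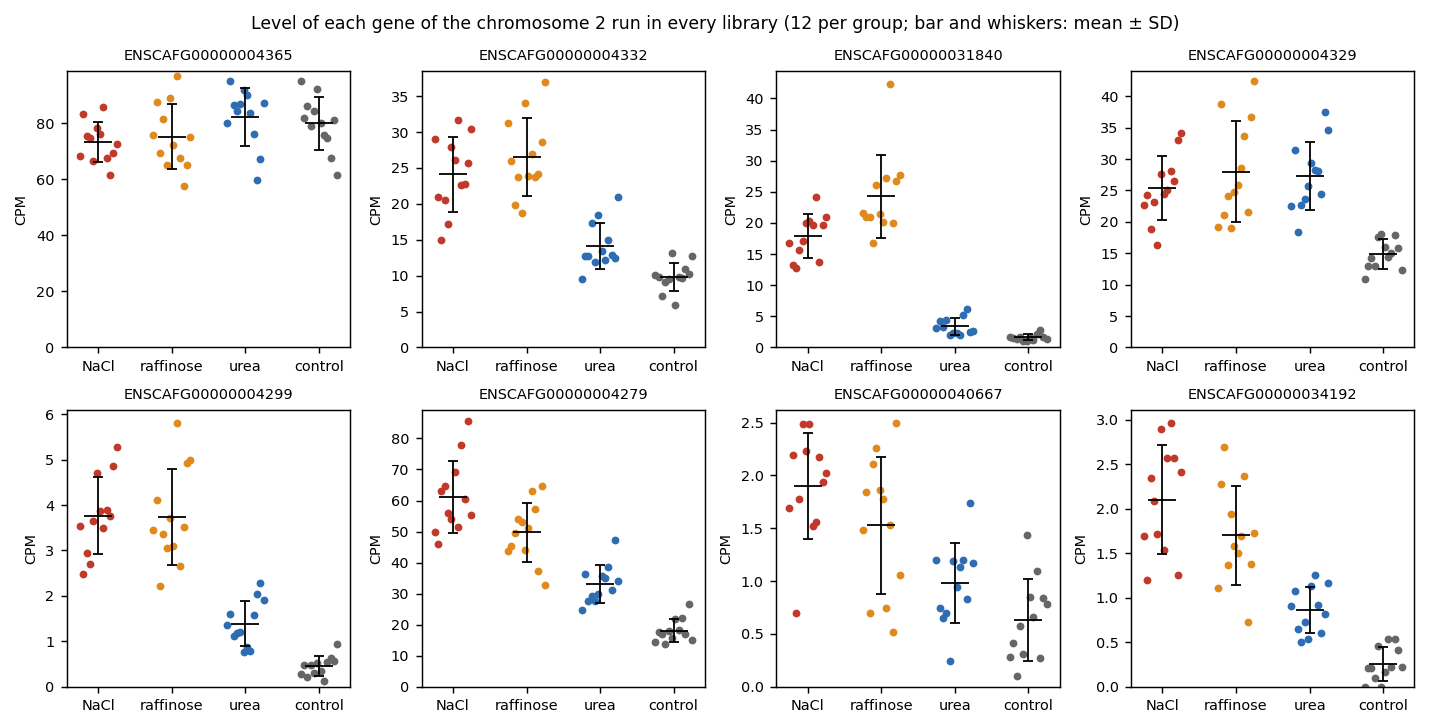
Level in CPM (linear axes from 0) of the 8 genes in chromosome order; each point is 1 library, with 12 per group ordered by passage within the group, and bars and whiskers are the mean ± SD. ENSCAFG00000031840 lies at 12.8 to 42.4 CPM in the NaCl and raffinose libraries and at 1.05 to 6.21 CPM in the urea and control libraries, while the 4 groups of ENSCAFG00000004365 overlap.

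ENSCAFG00000031840 had the largest difference from control of the 8 genes after NaCl and after raffinose. Its lowest, median and highest levels were 12.8, 18.4 and 24.2 CPM after NaCl, 16.8, 21.5 and 42.4 CPM after raffinose, 1.94, 2.88 and 6.21 CPM after urea, and 1.05, 1.64 and 2.78 CPM in control. Every NaCl and every raffinose library lay above every urea and every control library, whereas 6 of the 12 urea libraries lay above all controls. The log2 fold change over control was 3.44 ± 0.17 (SE) for NaCl, 3.88 ± 0.17 for raffinose and 1.06 ± 0.19 for urea. The raffinose library of passage 14 was the highest of all, at 42.4 CPM.

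ENSCAFG00000004299 also had its higher levels after NaCl and raffinose, at much lower CPM. It had 2.49, 3.71 and 5.28 CPM (lowest, median, highest) after NaCl, 2.22, 3.49 and 5.81 CPM after raffinose, 0.757, 1.28 and 2.28 CPM after urea, and 0.120, 0.482 and 0.946 CPM in control. These levels rest on 25 to 68 reads per NaCl library and 2 to 17 reads per control library. NaCl and raffinose libraries were all above the controls, and 9 of 12 urea libraries were. Its log2 fold changes over control were 2.99 ± 0.21 for NaCl, 3.0 ± 0.21 for raffinose and 1.58 ± 0.23 for urea.

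ENSCAFG00000034192, at the far end of the window, was scarcely detected in control. There it had 0 to 9 reads per library and no read in 2 of the 12, where a count of 0 allows up to 3 reads; this limit covers counting error alone, as the reads have no molecular identifiers. Its lowest, median and highest levels were 1.20, 2.22 and 2.96 CPM after NaCl, 0.725, 1.63 and 2.69 CPM after raffinose, 0.498, 0.863 and 1.25 CPM after urea, and 0, 0.214 and 0.539 CPM in control. All NaCl and raffinose libraries and 11 of 12 urea libraries were above the highest control. The log2 fold changes over control were 2.91 ± 0.25, 2.60 ± 0.26 and 1.66 ± 0.28 for NaCl, raffinose and urea.

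The longest gene, ENSCAFG00000004279, gave the most reads of the 7 higher genes. It had 46.1, 58.2 and 85.6 CPM (lowest, median, highest) after NaCl, 32.8, 50.2 and 64.7 CPM after raffinose, 24.8, 32.6 and 47.2 CPM after urea, and 13.9, 17.3 and 26.6 CPM in control. NaCl and raffinose libraries did not overlap with control, and 1 urea library, passage 1 at 24.8 CPM, lay within the control range. The log2 fold changes over control were 1.75 ± 0.11 for NaCl, 1.45 ± 0.11 for raffinose and 0.87 ± 0.11 for urea. ENSCAFG00000040667, the short gene beside it, had only 1 to 34 reads per library and overlapped between all groups. It averaged 1.90 ± 0.50 CPM after NaCl, 1.53 ± 0.649 after raffinose, 0.979 ± 0.379 after urea and 0.634 ± 0.390 in control (SD, n = 12 each).

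ENSCAFG00000004332 averaged 24.1 ± 5.21 CPM after NaCl, 26.5 ± 5.45 after raffinose, 14.1 ± 3.24 after urea and 9.83 ± 1.99 in control (SD, n = 12 each). The NaCl and raffinose libraries did not overlap with control, and 5 of the 12 urea libraries lay above all controls. ENSCAFG00000004329 had medians close to each other after the 3 solutes. Its lowest, median and highest levels were 16.3, 24.7 and 34.2 CPM after NaCl, 19.0, 25.3 and 42.5 CPM after raffinose, 18.4, 26.9 and 37.5 CPM after urea, and 10.9, 14.8 and 18.1 CPM in control. Raffinose and urea libraries were all above control, and the NaCl library of passage 8, at 16.3 CPM, was the only NaCl library within the control range.

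ENSCAFG00000004365 was the most abundant gene of the window by CPM in every group, with small differences between groups. It had 61.6, 73.8 and 85.7 CPM (lowest, median, highest) after NaCl, 57.6, 73.8 and 96.9 CPM after raffinose, 59.8, 85.4 and 95.0 CPM after urea, and 61.5, 80.5 and 95.1 CPM in control. The 4 groups overlapped almost fully, and the log2 fold changes over control were -0.12 ± 0.07 for NaCl, -0.09 ± 0.07 for raffinose and 0.04 ± 0.07 for urea. The last value changed sign, to -0.03, when libraries were scaled by their totals alone.

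As counts over the 8 genes, 7 passed upward and 0 downward against control after each solute in edgeR's quasi-likelihood test (adjusted p under 0.05). Of all tested genes, 34.6% passed upward and 36.1% downward for NaCl, 36.7% and 38.2% for raffinose, and 27.4% and 24.9% for urea. Since these comparisons chose the window, nothing is read from the counts. Groups did not overlap in 5 of 8 genes after NaCl, in 6 after raffinose and in 1 after urea, against 13.2%, 14.3% and 4.67% of all tested genes that lay wholly above control; 0 of the 8 genes and 11.0%, 12.9% and 4.38% of all tested genes lay wholly below it. The median log2 fold change of the 8 was 1.66 for NaCl, 1.44 for raffinose and 0.88 for urea, and that of all tested genes was -0.02, -0.02 and 0.02. The 3 sets of values share the control libraries. In same-passage pairs, 4 of the 7 higher genes were above control at all 12 passages after every solute, and the exceptions were ENSCAFG00000004329 after NaCl (11 of 12) and, after urea, ENSCAFG00000004332 (11 of 12) and ENSCAFG00000040667 (10 of 12).

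Per kilobase of exon, the order of the genes within the window changed with the medium. In control, ENSCAFG00000004365 led with 45.4 ± 5.37 CPM per kb (SD), followed by ENSCAFG00000004332 at 8.95 ± 1.81 and ENSCAFG00000004329 at 7.46 ± 1.17, which overlap within their SDs, then ENSCAFG00000004279 at 3.75 ± 0.768 and ENSCAFG00000031840 at 2.89 ± 0.861, which also overlap. ENSCAFG00000040667 (1.86 ± 1.14), ENSCAFG00000034192 (0.449 ± 0.333) and ENSCAFG00000004299 (0.257 ± 0.126) came last. After raffinose, ENSCAFG00000031840 reached 43.2 ± 11.8 CPM per kb, level with ENSCAFG00000004365 at 42.7 ± 6.57 within their SDs. After NaCl it was second at 31.7 ± 6.27, below ENSCAFG00000004365 at 41.6 ± 3.99. After urea it stood at 5.97 ± 2.45, close to ENSCAFG00000004279 at 6.84 ± 1.26. The summed level of the 8 genes was 209.7 ± 18.9 CPM after NaCl, 211 ± 24.1 after raffinose, 164 ± 14.6 after urea and 126 ± 9.83 in control. ENSCAFG00000004365 made up 35.2 ± 4.14% of that sum after NaCl, 35.8 ± 3.88% after raffinose, 50.5 ± 5.57% after urea and 63.5 ± 4.31% in control.

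**Figure D2:**
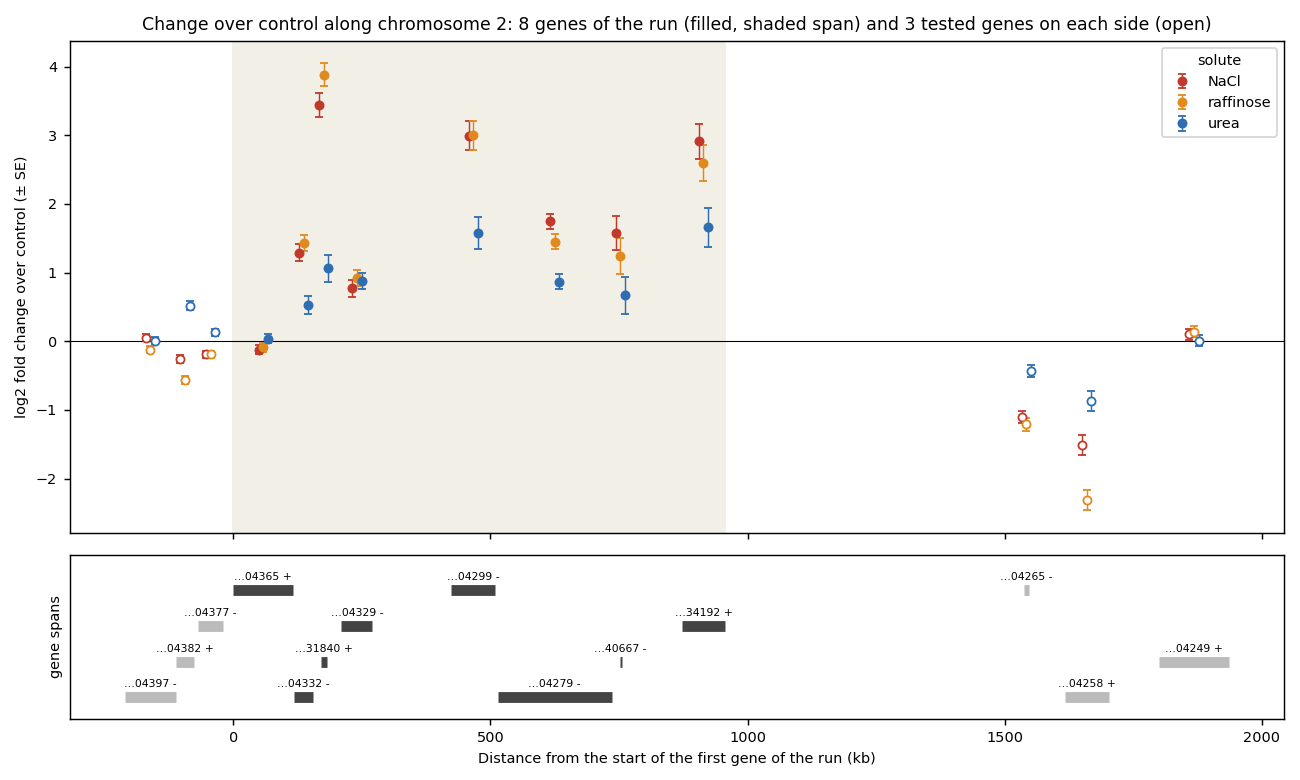
Upper panel, log2 fold change over control (± SE, 12 libraries per group) for NaCl, raffinose and urea against distance from the start of the first gene of the run in kb; filled points in the shaded span are the 8 genes of the run and open points are the 3 nearest tested genes on each side. Lower panel, spans of the same genes, labelled with the last 5 digits of the identifier and the strand. The 7 genes after the first lie between 0.53 and 3.88, the open points between -2.31 and 0.52.

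The nearest tested genes on both sides had differences from control that were opposite to, or smaller than, those of the higher genes of the run. On the near side, ENSCAFG00000004377 (6873016 to 6921782) ends 19.9 kb before the window and had 77.1 ± 6.82 CPM after NaCl, 76.9 ± 6.33 after raffinose, 96.4 ± 6.51 after urea and 88.0 ± 6.29 in control. Next to it, ENSCAFG00000004382 was lower than control after NaCl and raffinose and higher after urea, with log2 fold changes of -0.26 ± 0.06, -0.56 ± 0.06 and 0.52 ± 0.06. Its value for urea was close to that of ENSCAFG00000004332 in the run (0.53 ± 0.13). On the far side lies a stretch of 582 kb that holds 4 annotated rows and no tested gene. Beyond it, ENSCAFG00000004265 had log2 fold changes of -1.10 ± 0.09, -1.21 ± 0.09 and -0.43 ± 0.09 for NaCl, raffinose and urea, and ENSCAFG00000004258 of -1.51 ± 0.14, -2.31 ± 0.15 and -0.87 ± 0.14. These values mark where the window was drawn and were not tested.

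The bounds of the window were not drawn from comparisons between solutes, although these use the same solute libraries. The level threshold was not independent of them: ENSCAFG00000040667 and ENSCAFG00000034192 averaged at least 1 CPM after NaCl and raffinose but 0.979 and 0.858 CPM after urea, so they are members only through the groups in which they are high. Their values against urea are therefore a description, and the counts of 6 below include both. The other 4 genes counted also averaged over 1 CPM after urea. Only these 4 are read beside the shares of all tested genes. NaCl gave higher levels than urea in 6 of the 8 genes and lower ones in 1 (edgeR's quasi-likelihood test, adjusted p under 0.05), where 35.7% of all tested genes were higher after NaCl and 36.9% lower. The difference was largest in ENSCAFG00000031840, at 17.9 ± 3.53 CPM after NaCl and 3.37 ± 1.38 CPM after urea, a log2 fold change of 2.37 ± 0.16 (edgeR adjusted p = 2.21e-19). ENSCAFG00000004299 (1.41 ± 0.18, edgeR adjusted p = 1.52e-09) and ENSCAFG00000034192 (1.26 ± 0.22) came next. ENSCAFG00000040667, ENSCAFG00000004279 and ENSCAFG00000004332 were higher by 0.91 ± 0.24, 0.88 ± 0.11 and 0.77 ± 0.12 on the log2 scale. All 6 were higher after NaCl at all 12 passages.

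Without overlap between NaCl and urea libraries stood 2 of the 8 genes, ENSCAFG00000031840 and ENSCAFG00000004299, against 13.6% of all tested genes that lay wholly higher. Against a minimum fold of 1.5, ENSCAFG00000004332 no longer passed (edgeR adjusted p = 0.0706). ENSCAFG00000040667, given as a description only, also left the count of genes higher after NaCl than after urea. ENSCAFG00000004365 was slightly lower after NaCl than after urea (-0.17 ± 0.07, lower in 9 of 12 same-passage pairs, edgeR adjusted p = 0.0418). That call was lost in 9 of the 12 fits with 1 passage left out, namely without passage 1, 4, 5, 7, 8, 10, 11, 14 or 19 (edgeR adjusted p from 0.0170 to 0.0900 over the 12), without the shallowest library (urea, passage 8), and with RLE factors (the median-ratio scaling of DESeq2), DESeq2, a mean of at least 5 CPM or a minimum fold of 1.5. For ENSCAFG00000004329 the test did not pass: 25.4 ± 5.12 CPM after NaCl and 27.3 ± 5.45 CPM after urea, a log2 fold change of -0.11 ± 0.12 (edgeR adjusted p = 0.425), higher in 5 and lower in 7 of 12 pairs.

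Raffinose against urea gave 6 of the 8 genes higher, all but ENSCAFG00000004329 and ENSCAFG00000004365 and again with the 2 genes admitted through NaCl and raffinose, and 0 lower, where 37.6% of all tested genes were higher and 38.4% lower. ENSCAFG00000031840 had 24.3 ± 6.64 CPM after raffinose and 3.37 ± 1.38 CPM after urea (2.82 ± 0.16, edgeR adjusted p = 1.76e-22), and it was the 1 gene of the 8 without overlap, against 14.2% of all tested genes. ENSCAFG00000004299 (1.42 ± 0.18), ENSCAFG00000034192 (0.95 ± 0.22) and ENSCAFG00000004332 (0.91 ± 0.12) followed, each higher at all 12 passages. ENSCAFG00000004279 rose by 0.58 ± 0.11 (edgeR adjusted p = 3.74e-06, 11 of 12 pairs). ENSCAFG00000040667 was higher by 0.58 ± 0.25 (9 of 12 pairs), given as a description only. It left the count of 6 without passage 4, 7, 8 or 11, with library totals and with no filter on low counts. Against a minimum fold of 1.5, ENSCAFG00000004279 did not pass and ENSCAFG00000040667 again left the count. ENSCAFG00000004329 again did not pass (28 ± 8.04 CPM after raffinose, 27.3 ± 5.45 CPM after urea, log2 fold change 0.04 ± 0.12). ENSCAFG00000004365 was lower in 11 of 12 same-passage pairs (-0.13 ± 0.07) and missed the threshold in the main fit, which does not use the pairing (edgeR adjusted p = 0.113). It passed with the passage number as a replicate block (edgeR adjusted p = 0.0269), with library totals and without passage 13 (edgeR adjusted p = 0.0451).

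**Figure D3:**
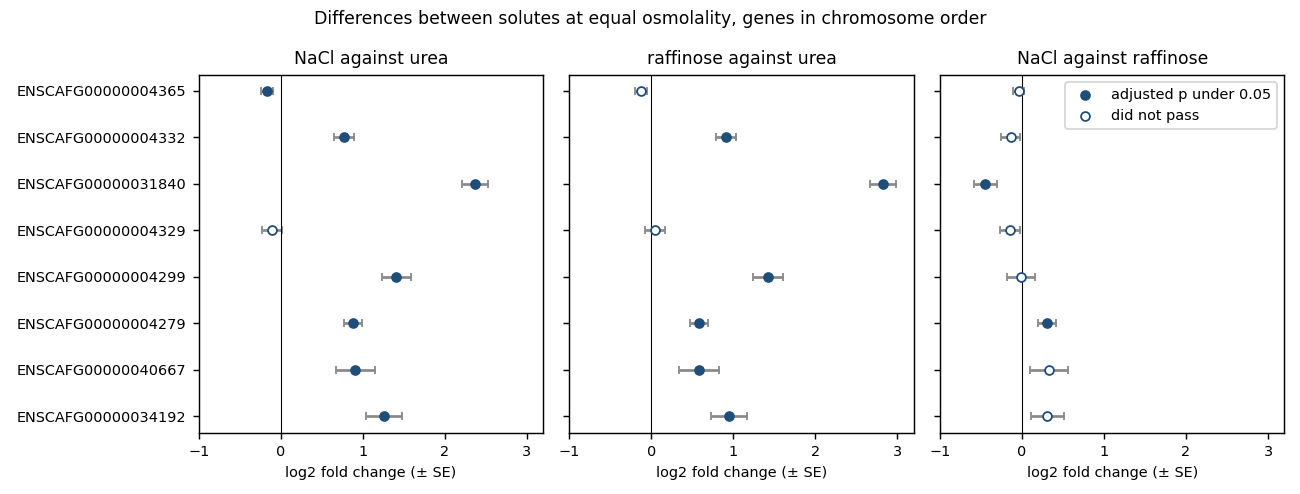
Log2 fold change (± SE, 12 libraries per group) between solutes for the 8 genes in chromosome order, with NaCl over urea on the left, raffinose over urea in the middle and NaCl over raffinose on the right. Filled points passed at an adjusted p under 0.05. For ENSCAFG00000040667 and ENSCAFG00000034192 against urea, the fill is a description only. Differences from urea reach 2.82 in ENSCAFG00000031840 and lie at -0.11 and 0.04 in ENSCAFG00000004329; NaCl and raffinose differ by between -0.45 and 0.33.

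NaCl and raffinose differed in 2 of the 8 genes, 1 in each direction, where 7.42% of all tested genes were higher after NaCl and 7.97% lower. ENSCAFG00000031840 was lower after NaCl (17.9 ± 3.53 CPM) than after raffinose (24.3 ± 6.64 CPM), by -0.45 ± 0.14 on the log2 scale (edgeR adjusted p = 0.0187, lower in 11 of 12 pairs). ENSCAFG00000004279 was higher after NaCl (61.1 ± 11.7 CPM) than after raffinose (49.7 ± 9.62 CPM), by 0.30 ± 0.11 (edgeR adjusted p = 0.0469, higher in 11 of 12 pairs). The difference in ENSCAFG00000004279 was lost in 9 of 12 fits with 1 passage left out, those without passage 4, 5, 7, 8, 10, 11, 14, 16 or 19 (edgeR adjusted p from 0.0282 to 0.0997), and neither passed against a minimum fold of 1.5. In both genes the NaCl and raffinose libraries overlapped. The remaining 6 genes had differences from -0.15 to 0.33 that did not pass, with standard errors of 0.07 to 0.23.

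Passage number played no part in the choice. In a model with a common linear term for passage, 3 of the 8 genes rose with passage and 1 fell, where 7.99% of all tested genes rose and 8.20% fell. This model counts the 4 libraries of a passage as independent. Same-passage libraries correlated at 0.31 on average after group means were removed, so its p-values can be too small. ENSCAFG00000004299 had a slope of 0.43 ± 0.11 log2 units per 10 passages (edgeR adjusted p = 0.00431), ENSCAFG00000004329 of 0.31 ± 0.07 (edgeR adjusted p = 0.00138) and ENSCAFG00000004279 of 0.20 ± 0.07 (edgeR adjusted p = 0.0348), while ENSCAFG00000004365 had -0.14 ± 0.05 (edgeR adjusted p = 0.0275). As a mean over the 4 groups, ENSCAFG00000004329 had 18.9 CPM at passage 1 and 30.9 CPM at passage 19. Its levels at these passages were 22.7 and 34.2 CPM after NaCl and 19.2 and 42.5 CPM after raffinose. They were 22.6 and 34.7 CPM after urea but 10.9 and 12.3 CPM in control. After adding up the counts of all 4 libraries at each passage (12 summed samples), 0 of the 8 genes passed, and 8 genes passed in the whole table. The edgeR adjusted p was 0.199 for ENSCAFG00000004329 and 0.290 for ENSCAFG00000004299. The sums had no group term, so they also shift with the relative depth of the groups at a passage. At passage 8, the urea library had 3.92 M counted reads and the NaCl library 12.86 M.

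The slope of ENSCAFG00000004329 passed in all 12 fits with 1 passage left out, and the other 3 calls did not. ENSCAFG00000004279 was highest at passage 17 in each of the 4 groups, with 85.6 CPM after NaCl, 64.7 after raffinose, 47.2 after urea and 26.6 in control; without passage 17 its slope was 0.09 (edgeR adjusted p = 0.362), and it did not pass without passage 1, 5 or 14 either. ENSCAFG00000004365 was lowest at passage 16 after NaCl (61.6 CPM), raffinose (57.6 CPM) and urea (59.8 CPM) and at passage 19 in control (61.5 CPM). Without passage 16 its slope was -0.10 (edgeR adjusted p = 0.108), and the call was also lost without passage 4, 14 or 17. The slope of ENSCAFG00000004299 was 0.34 without passage 19 (edgeR adjusted p = 0.0606), and that of ENSCAFG00000004329 was 0.26 without both passages 1 and 19 (edgeR adjusted p = 0.0699). ENSCAFG00000004332, which missed the threshold at 0.20 ± 0.07 (edgeR adjusted p = 0.0558), passed without passage 1, 10 or 16 and had a slope of 0.09 without passage 19. Terms for a different slope after NaCl, raffinose or urea than in control passed in 0 of the 8 genes and in 0 of all tested genes by edgeR.

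**Figure D4:**
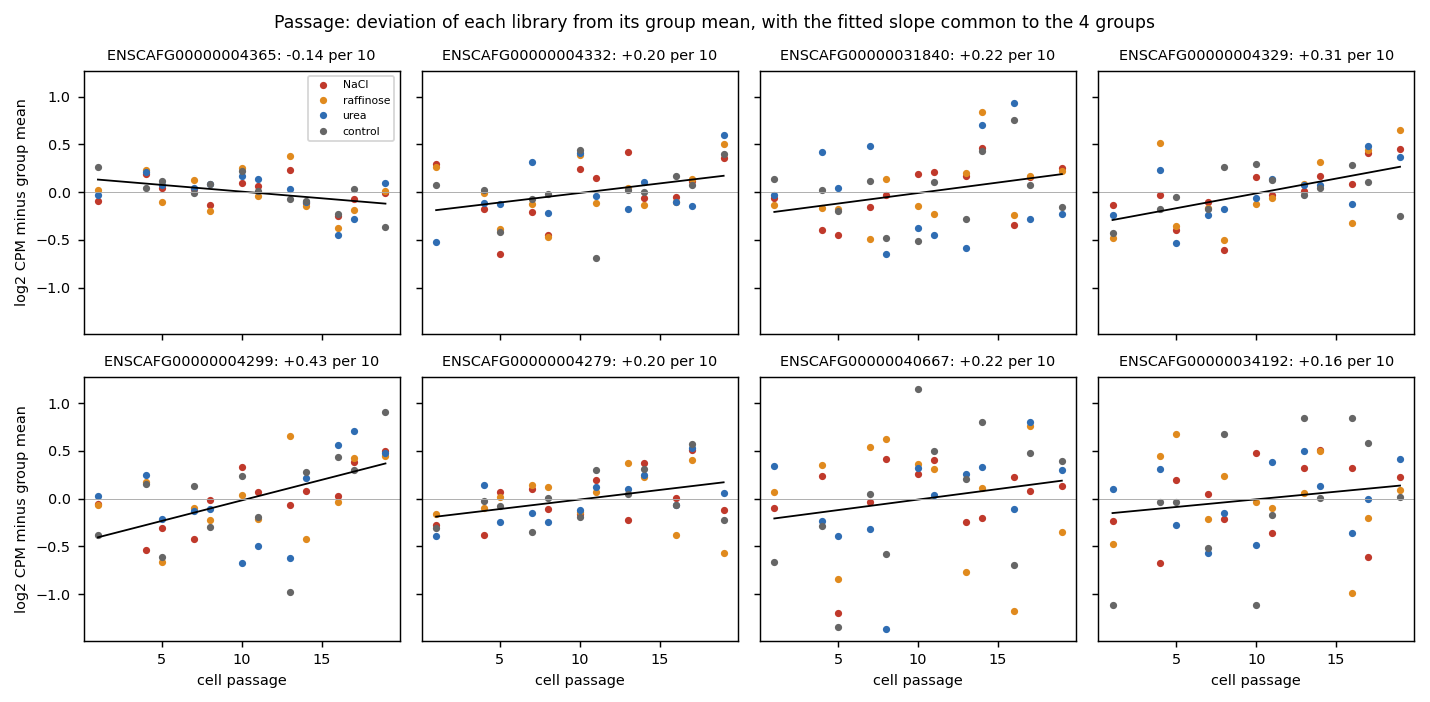
Deviation of each library's log2 CPM from its group mean against cell passage for the 8 genes, coloured by group (12 libraries each); the line is the fitted slope common to the 4 groups, per 10 passages. Slopes run from -0.14 in ENSCAFG00000004365 to 0.43 in ENSCAFG00000004299, and the points of passage 17 stand high in all 4 groups of ENSCAFG00000004279.

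Within a group, correlations between the 8 genes from passage to passage spread widely around low medians. Over the 12 libraries of a group, the median Pearson r of log2 CPM over the 28 gene pairs was 0.24 after NaCl, 0.16 after raffinose, 0.16 after urea and -0.01 in control, and individual pairs ran from -0.63 to 0.84. Of these 112 correlations, 0 passed at an adjusted p under 0.05 and 8 had an unadjusted p under 0.05 (two-sided permutation tests, 100000 resamples). With 12 libraries per group only strong correlations could pass, and counting error weighs on pairs with ENSCAFG00000040667 or ENSCAFG00000034192, which had few reads. The closest pair was ENSCAFG00000004329 with ENSCAFG00000004279 after urea: r = 0.84 (permutation p = 7.40e-04, adjusted p = 0.0829), rho = 0.87 (permutation p = 5.10e-04, adjusted p = 0.0571), and r = 0.78 without the 2 libraries farthest from the median of ENSCAFG00000004329. In the other groups the same pair had r = 0.30 after NaCl, -0.01 after raffinose and 0.43 in control. Among pairs next to each other on the chromosome, the median r of the 7 member pairs was 0.32 after NaCl, 0.38 after raffinose, 0.29 after urea and -0.05 in control, beside 0.11, 0.12, 0.10 and 0.11 for the 12562 neighbouring tested pairs of the genome. Biological variation between libraries of a group, as edgeR's coefficient, ran from 12.6% to 28% in the 8 genes with a median of 20.5%, against a median of 15.3% over all tested genes.

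Over all 48 libraries, differences between groups included, 7 of the 8 genes were matched more closely by a gene outside the window than by any other member. The outside match was the highest among nearly all of 12653 other tested genes, and the member match the highest among the few other members. An outside gene thus had far more chances to come first, and no likeness or unlikeness of the members is read from this count. The closest match of ENSCAFG00000031840 was ENSCAFG00000006095 (chromosome 22, 59059277 to 59092291; r = 0.97 of log2 CPM), with 80.4 CPM after NaCl, 90.2 after raffinose, 18.5 after urea and 13.5 in control. That of ENSCAFG00000004299 was ENSCAFG00000017643 (chromosome 6, 22150057 to 22165207; r = 0.94), that of ENSCAFG00000004332 ENSCAFG00000028599 (chromosome 2, 58946404 to 58957221; r = 0.94) and that of ENSCAFG00000004279 ENSCAFG00000032014 (chromosome 5, 24514901 to 24546808; r = 0.92). ENSCAFG00000004329 was matched by ENSCAFG00000003075 (chromosome 13, 62923746 to 62936829, r = 0.86). That gene had 68.8, 64.4 and 72.6 CPM after NaCl, raffinose and urea and 18.2 in control, a profile that the choice by r favoured. ENSCAFG00000004365 was matched by ENSCAFG00000024856 (chromosome 34, 26555614 to 26614843; r = 0.80), and its r with the closest other member was -0.04.

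ENSCAFG00000034192 was the exception. Of the 12653 other tested genes, 0 were more like it than ENSCAFG00000004279, its neighbour but one (r = 0.89); the closest gene outside the window was ENSCAFG00000010971 (chromosome 37, 8547922 to 8731180; r = 0.88). For ENSCAFG00000040667, which lies between these 2, the closest member was again ENSCAFG00000004279 (r = 0.72), with 14 tested genes more alike and ENSCAFG00000005500 (chromosome 22, 46407540 to 46591371; r = 0.75) the closest of these. For ENSCAFG00000004299 the closest member was ENSCAFG00000031840 (r = 0.92), with 11 tested genes more alike. The number more alike than the closest member was 47 for ENSCAFG00000004279, 81 for ENSCAFG00000004332, 207 for ENSCAFG00000004329, 353 for ENSCAFG00000031840 and 6728 for ENSCAFG00000004365. These correlations share the libraries and their grouping and are given as a description.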

How the data were processed

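The authors deposited 1 table of raw counts. CASAVA, HISAT2 2.0.5 and featureCounts 1.5.1 are the tools in the submitters' processing notes. Counting used exons of Ensembl release 87 (CanFam3.1) and ignored strand, per the file headers. Columns of passage 10 carry an added number of unstated meaning and were matched to that passage. The table had 0 blank rows and 0 unused value columns. The lowest chi-square per gene between libraries of a group was 4.99 over 264 pairs (genes with at least 10 reads), so each library counted as 1 replicate.

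Counts of genes kept by filterByExpr (12654) were scaled by TMM and fitted with edgeR 4.0.16 (R 4.3.3, glmQLFit, glmQLFTest, group term, all 48 libraries), with Benjamini-Hochberg adjustment over all tested genes and a threshold of 0.05; the SE is the log2 fold change over the square root of F. CPM uses TMM-scaled totals, and CPM per kb divides by the deposited exonic length. The fits were tested on simulated data. Passage numbers come from the labels: the 72 same-passage pairs of libraries correlated at 0.31 on average after group means were removed, against -0.03 for 792 other pairs.

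The genes named are all members, the 3 nearest tested genes on each side, and for each member the tested gene outside the window with the highest r. The members, lists and tests were chosen with earlier results of these data known. The symbol lists of osmolyte and marker genes were not applied, since 0 identifiers matched. Alternatives tried were RLE factors, library totals, no filter, DESeq2 1.42.0, keeping genes that average 5 CPM or more, passage as replicate block or linear term, only the 2 groups compared, a minimum fold of 1.5 (glmTreat), 1 passage left out, passages 1 and 19 left out, counts summed per passage and, added after seeing the totals, the shallowest library left out.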

Additional observations from a re-analysis of the deposited data

How the results depend on the processing

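Scaling by library totals alone put the median of all tested genes against control at -0.19 (NaCl), -0.25 (raffinose) and -0.05 (urea); the 7 genes above control stayed above it after every solute under each alternative that gave a value (none for ENSCAFG00000004299, ENSCAFG00000040667 and ENSCAFG00000034192 at a mean of at least 5 CPM, nor with only the 2 groups for the last 2 after raffinose and all 3 after urea), with ENSCAFG00000004329 lowest at 0.60 after NaCl and ENSCAFG00000004332 at 0.45 after urea. For NaCl against urea, 6 members called higher became 3 with a mean of at least 5 CPM, which keeps fewer of them, and 4 with a minimum fold of 1.5; 1 called lower became 0 with RLE factors, that filter, DESeq2, that fold and without the shallowest library (0 to 1 with 1 passage left out). For raffinose against urea, 6 called higher became 3 with that filter, 4 with that fold, and 5 with library totals or no filter (5 to 6 with 1 passage left out), and 0 called lower became 1 with library totals and with passage as a replicate block (0 to 1). For NaCl against raffinose, 1 called higher became 0 with RLE factors, no filter, only the 2 groups or a minimum fold of 1.5 (0 to 1 with 1 passage left out), and 1 called lower became 0 with that fold. The counts against urea include ENSCAFG00000040667 and ENSCAFG00000034192, for which they are a description only. No share of all tested genes stands beside the counts under these alternatives, here and for passage, so they show only which calls moved.

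For passage, 3 rising and 1 falling became 4 and 0 with library totals, 1 rising without passages 1 and 19, 0 and 0 with summed counts, and 2 to 4 and 0 to 1 with 1 passage left out. The NaCl against raffinose median, -0.02, was 0.04 with library totals, 0.00 with no filter and -0.04 to 0.03 with 1 passage left out. Signs of values that did not pass turned for ENSCAFG00000004329 (raffinose against urea, -0.12 with library totals), ENSCAFG00000004365 (NaCl against raffinose, 0.02 with library totals) and ENSCAFG00000004299 (NaCl against raffinose, 0.06 with library totals, 0.01 with no filter, 0.00 with the replicate block, and up to 0.08 with 1 passage left out). The replicate block changed no other call between solutes. Causes were not tested. Depth limits ENSCAFG00000040667 and ENSCAFG00000034192, with medians of 8.00 and 2.50 reads per control library.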
